A study of Mus musculus with 45 samples.

Results

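The 2 libraries that the labels mark VE, read here as visceral endoderm, were compared with sections 3 to 8 of the same stage of mouse embryo, E5.75. The VE libraries were taken from sections 6 and 7, so the comparison sets 2 libraries against 6, out of 19 libraries with values at E5.75 and 45 samples in the series. The members were chosen by their labels. Because the VE libraries hold few genes, the description concentrates on the 710 of 13618 genes with an FPKM (a fragment count scaled by transcript length and library size) of at least 1 in both of them. That choice uses the VE level and favours genes that are high there, so counts over the 710 genes are given as descriptions.

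The study examined gene expression along the proximal-distal axis, with 7 samples of embryos at E5.25, 17 at E5.5 and 21 at E5.75. All groups used here are E5.75 tissue with no treatment, and the labels give neither strain nor genotype. Embryos were taken fresh from the mother, freed of decidua, embedded in OCT, frozen, sectioned and captured by laser, and RNA-seq followed the Smart-seq2 protocol for low input. The sample titles give stage and section and name no embryo, so whether every library came from 1 embryo is not known. Here n = 2 and n = 6 count captures, and p-values compare captures, not embryos. Whether visceral endoderm had been removed from the captures of sections 3 to 8 is not stated, and the word embryonic for these sections is a working name that is not in the labels.

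Visceral endoderm is the epithelium that wraps the epiblast and the extraembryonic ectoderm after implantation. It takes up maternal proteins and lipids through receptors on its outer face, breaks them down in large lysosomes, and secretes lipoproteins and other carriers to the embryo, as yolk sac and liver do later. Its distal and anterior part also secretes inhibitors of Nodal and Wnt, which pattern the epiblast beneath it.

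Both VE libraries were poor in genes. An FPKM of 1 was reached by 1496 genes in the VE library of section 6 and by 2147 in that of section 7, against 5303 to 7689 in sections 3 to 8. Rn45s, the precursor of ribosomal RNA, held 62.2% and 48.8% of the summed FPKM, against 3.89% to 16.2% in the sections. Lars2, a mitochondrial leucyl-tRNA synthetase whose transcript has a stretch that resembles mitochondrial ribosomal RNA, held 8.32% and 7.30%, against 1.01% to 3.61%. Without both, the summed FPKM was 231179 and 197889, against 170832 to 217975, so the remaining genes were on a similar scale. Since the tables give no counts, depth is unknown and a value of 0 is given only as a listing of 0. In tissue pieces of this kind, fewer cells of a type and less RNA per cell cannot be told apart.

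The label was met by some defining genes of visceral endoderm and not by others. Of the 8 listed apolipoproteins in the table, 4 stood above all 6 sections in both VE libraries. The regulators Hnf4a, Foxa2, Foxa3, Gata4 and Sox7 and the secreted proteins Afp, Rbp4, Trf and Apoa2 were listed at 0 in both. So were 75.9% of all genes in the table. Other markers were present in 1 VE library and at 0 in the other. Amn, a membrane anchor of the uptake receptor cubilin, was 7.71 in the VE library of section 7 on the log2(FPKM + 1) scale used for all levels here. Ttr, a thyroid hormone carrier, was 6.44 in that library, and the endoderm regulator Gata6 was 5.12 in the VE library of section 6.

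Where the apolipoprotein genes start is shown for the pair with the largest differences, Apoc2 and Apom, because both VE libraries held them far above the sections. Apom occupies chr17:35128997-35131801 and Apoc2 chr7:19671579-19677941 (mm10). Each promoter below covers 250 bases before to 50 bases after the transcription start, from RefSeq on GRCm38.p6, the assembly that mm10 names, on the minus strand at chr7:19677892-19678191 for Apoc2 and chr17:35131752-35132051 for Apom. Capitals mark matches to motifs of factors that act in endoderm.
Apoc2: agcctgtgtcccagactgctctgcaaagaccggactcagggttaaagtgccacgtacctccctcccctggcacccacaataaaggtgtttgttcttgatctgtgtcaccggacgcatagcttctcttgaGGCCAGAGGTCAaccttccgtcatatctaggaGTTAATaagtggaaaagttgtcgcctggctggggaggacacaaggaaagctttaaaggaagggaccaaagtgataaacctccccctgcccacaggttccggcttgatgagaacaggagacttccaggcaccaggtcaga
Apom: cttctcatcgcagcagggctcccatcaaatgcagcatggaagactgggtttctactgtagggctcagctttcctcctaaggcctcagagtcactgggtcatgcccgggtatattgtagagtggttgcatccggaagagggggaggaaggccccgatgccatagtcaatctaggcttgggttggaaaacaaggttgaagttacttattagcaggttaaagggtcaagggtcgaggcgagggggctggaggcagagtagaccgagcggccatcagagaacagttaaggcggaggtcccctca
Both strands were searched for GTTAAT, the core of HNF1 sites, for AGATAA, which GATA factors bind, and for a spaced direct repeat bound by nuclear receptors such as HNF4. The Apoc2 promoter held the direct repeat 121 bases and GTTAAT 89 bases before the start, and the motifs did not overlap. The Apom promoter held no exact match to any of the 3 motifs, nor did those of Apob and Apoa1. Near matches were not searched. Of the 3 promoters of Apoe, 1 held GTTAAT on the opposite strand, 172 bases before the start. Of all 32851 promoters of this length, 7.1% held GTTAAT, 11.2% held AGATAA and 0.801% held the direct repeat. A match is a description of letters and not a site, and these windows say nothing about binding.

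Apom and Apoc2 led the genes above the sections, and many genes of the epiblast, the respiratory chain and the cell cycle lay below them. Over all 8654 genes tested, limma with Benjamini-Hochberg adjustment at 0.05 called 2297 (26.5%), of which 124 (1.43%) were higher and 2173 (25.1%) lower in VE. All 124 higher genes had an FPKM of 1 in both VE libraries, as did 82 of the lower genes. The differences of the higher genes ran from 1.33 to 7.03 with a median of 3.15, and 121 of the 124 stood above all 6 sections in both VE libraries. Of all genes tested, 179 (2.07%) had both VE values above all 6 sections and 3356 (38.8%) had both below. Against all 17 sections of the stage, 59 of the 124 genes were above in both VE libraries. A gene entered the test with an FPKM of 1 in 2 of the 8 libraries, so 15 genes that reached it in no section entered only because both VE libraries did. All 15 were among the 124, and their calls follow in part from that entry rule. Fitted with no such rule, 13 of the 15 were called higher. A further 169 genes reached an FPKM of 1 in 1 section and needed a VE library to enter, and 10 of them were called higher, Apob and Fdxr included.

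Most calls of lower expression were listings of 0. Of the 2173 lower genes, 1672 (76.9%) were at 0 in both VE libraries, as were 65.1% of all genes tested and 75.9% of all genes in the table. Detection in both rose with the level in the sections, from 2.46% of genes with a section mean of 1 to 2 to 81.6% of those at 8 or more. The median difference was -1.39 over all genes tested and -0.02 over the 588 genes with an FPKM of 1 in all 8 libraries. Fitted alone, those 588 genes gave 72 higher (12.2%) and 94 lower (16%).

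The counts depended on how detection was treated. When each library's count of detected genes entered the fit, no gene was called (smallest adjusted p = 0.188, limma with Benjamini-Hochberg adjustment), 1173 genes had an unadjusted p below 0.05, and detection and group cannot be told apart. With sections 6 and 7 alone as the other group, 40 genes were higher, 36 of them among the 124. Without the VE library of section 6 the count of higher genes was 475, with 75 of the 124 among them, and without that of section 7 it was 449, with 84 of the 124, both with a lone VE library assumed to vary like the sections; the 82 lower genes became 135 and 164. Quantile normalization, which moved the median of all genes to -0.55, gave 220 higher and 980 lower genes.

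**Figure D1:**
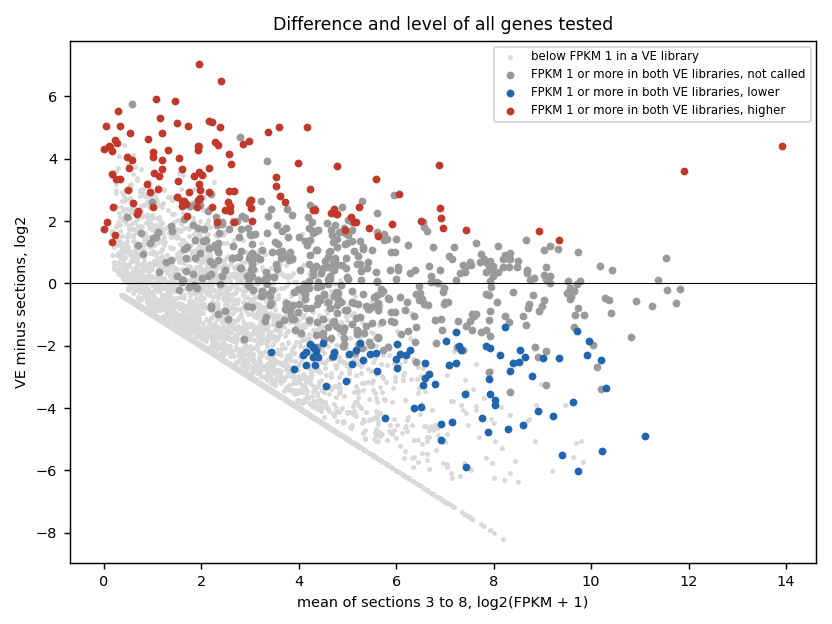
Difference between VE and sections 3 to 8 (y axis, log2) against the mean of the 6 sections (x axis, log2(FPKM + 1)) for the 8654 genes tested. Pale points are genes below an FPKM of 1 in a VE library, many of them on the lower edge where both VE values are 0; red and blue points are the 124 higher and 82 lower genes with an FPKM of 1 in both VE libraries.

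Among secreted proteins, 4 apolipoproteins and Spink3 were higher in the VE libraries. Of the 30 genes in the list of visceral endoderm secreted proteins, 17 were in the table and 10 were tested, with 5 higher, 0 lower and 5 not called. Of all genes tested, 1.43% were higher and 25.1% lower. The median difference of the 10 was 3.43, beside -1.39 over all genes tested. The list summed to an FPKM of 1124 in the section 6 VE library and 4791 in that of section 7, against 26.8 to 138 in the sections.

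Apom, the apolipoprotein that carries sphingosine-1-phosphate on lipoprotein particles, was at 8.48 and 9.50 in the VE libraries. In sections 3 to 8 it was at 0 at the lowest, 1.64 at the median and 4.36 at the highest. The groups did not overlap, and the difference was 7.03 ± 1.27 (SE, limma adjusted p = 0.0023). Apoc2, the cofactor of lipoprotein lipase, was at 8.53 and 9.30, against 0, 2.89 and 5.22, again without overlap. Its difference was 6.51 ± 1.26 (SE, limma adjusted p = 0.0033). With sections 6 and 7 alone as the other group, the difference of Apoc2 was not called.

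Apob, the structural protein of chylomicrons and very-low-density particles, was low in every section and present in both VE libraries. Its levels were 3.55 and 5.53 in VE and 0.10, 0.47 and 1.02 in the sections. The difference was 4.06 ± 0.65 (SE, limma adjusted p = 0.0012), and no section of the 17 exceeded 1.35. Apoe, a ligand of lipoprotein receptors, was at 7.99 and 9.22 in VE, against 0.78, 4.18 and 4.70, a difference of 5.01 ± 0.99 (SE, limma adjusted p = 0.0039). Unlike the other 3 apolipoproteins named here, Apoe was above the VE library of section 6 in a section outside the comparison, since section 1 held 8.76.

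Spink3, an older mouse symbol of the secreted trypsin inhibitor Spink1, was at 7.06 and 11.32 in VE, against 1.16, 4.56 and 5.76. It was called higher by 5.01 ± 1.24 (SE, limma adjusted p = 0.0123), and the call rested on the VE library of section 7, since without it the gene was not called. It was also not called with sections 6 and 7 alone. Apoa1, the main protein of high-density lipoprotein, was at 2.23 and 7.01 and overlapped the sections, which ran from 0.97 to 4.71. Ttr and the coagulation factor gene F5 were at 0 in the VE library of section 6, and at 6.44 and 4.72 in that of section 7. Apoc1 was at 0 and 2.96, with a section median of 4.54, and was not called. The members called were thus 4 apolipoproteins and a protease inhibitor.

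**Figure D2:**
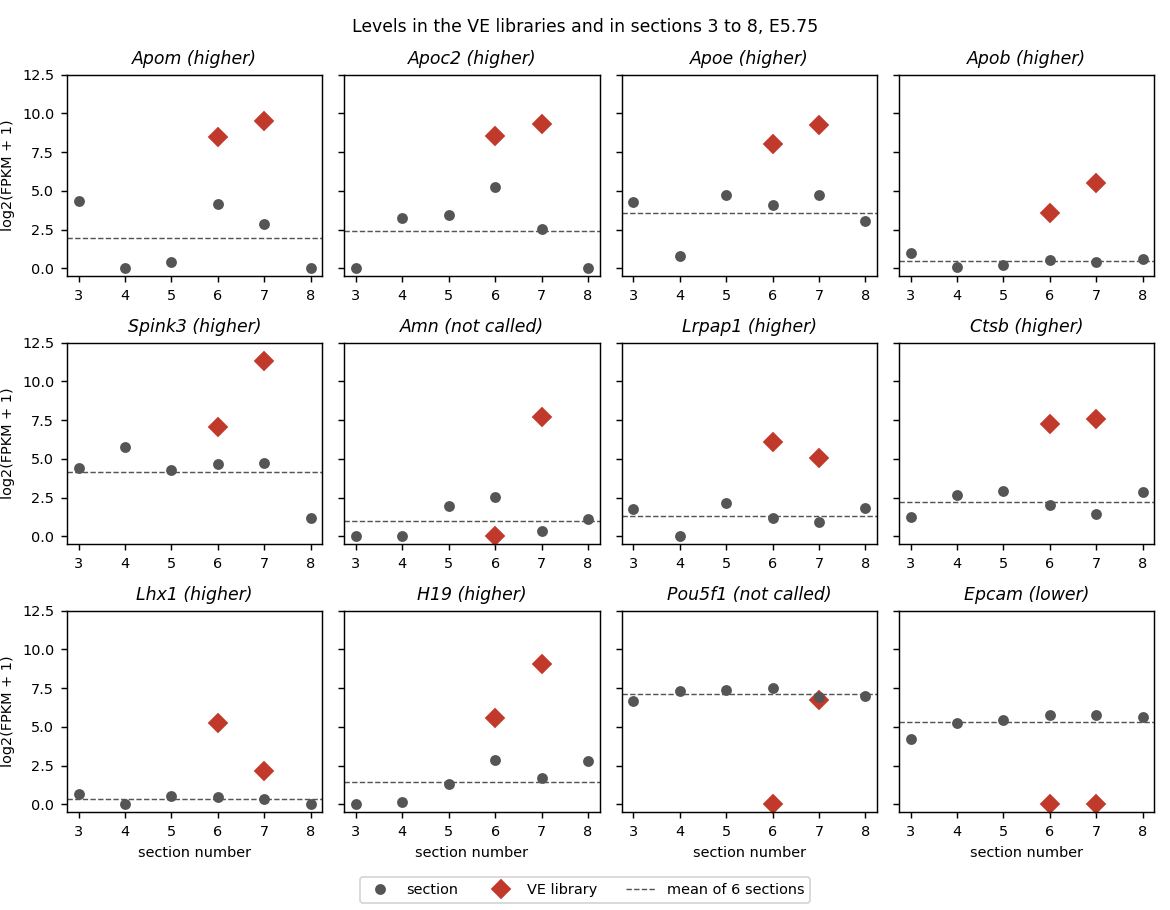
Levels of 12 genes (y axis, log2(FPKM + 1)) by section number (x axis); grey points are sections 3 to 8, red diamonds the VE libraries of sections 6 and 7, and dashed lines the mean of the 6 sections. Both diamonds lie above all grey points for the 4 apolipoproteins, Spink3, Lrpap1, Ctsb, Lhx1 and H19, whereas Amn and Pou5f1 are at 0 in 1 VE library and Epcam in both.

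Uptake receptors and brush-border genes were mixed. Of 20 tested members of that list, 2 were higher, 3 lower and 15 not called, and 1 of the higher genes, Anxa2, entered the test only through the VE libraries. Over all genes tested, 1.43% were higher and 25.1% lower. The summed FPKM of the list was 1448 and 995 in VE, against 242 to 396 in the sections. Cldn6 and Anxa2 made up 93.0% of that sum in the VE library of section 6 and 3.07% in that of section 7. Lrpap1, a chaperone that keeps lipoprotein receptors free of ligand in the endoplasmic reticulum, was at 6.11 and 5.08 in VE. The sections ran from 0 through a median of 1.46 to 2.18, and the groups did not overlap. Section 1, outside the comparison, was at 5.53, above the VE library of section 7. The difference was 4.29 ± 0.71 (SE, limma adjusted p = 0.0015). Its receptor Lrp2, known as megalin, was at 0.84 and 3.11 and overlapped the sections at 1.41 to 2.94. Cubn, which encodes cubilin, was at 1.23 and 0.71, with section values up to 1.29.

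Epithelial genes of the same list did not move one way. Anxa2, a membrane-binding annexin, was at 8.87 in the VE library of section 6 and at 1.30 in that of section 7, against at most 0.28 in the sections. Section 19, outside the comparison, held 7.02 of Anxa2. Because none of sections 3 to 8 reached an FPKM of 1, its higher call followed from the entry rule. With no such rule it was not called (limma adjusted p = 0.0511). Cldn6, a tight-junction claudin, was at 9.78 and 4.91 and overlapped the sections. The keratin Krt8 was at 4.84 and 0 and its partner Krt18 at 0 and 8.18, so each VE library listed a different one of the pair. The adhesion genes Epcam and Cdh1 were lower in VE. Epcam was at 0 in both VE libraries and at 4.18 to 5.76 in the sections, and Cdh1 was at 0.77 and 3.08, against 4.53 to 5.38.

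Dab2, the adaptor that links megalin to clathrin, was the only one of the listed VE regulators and signals with an FPKM of 1 in both VE libraries. It was at 1.82 and 5.60, against 0.10 to 2.89 in the sections, and was not called (limma adjusted p = 0.158). Of the 17 members of that list in the table, 10 were at 0 in both VE libraries, beside 75.9% of all genes in the table. Of the 17, 6 were tested and 0 called, where 1.43% of all genes tested were higher and 25.1% lower. Vegfa was at 0 and 5.70, Tbx3 at 0 and 4.22 and Sox17 at 0 and 1.76. All 3 were thus listed in only that of section 7.

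Among lysosomal genes the cathepsin B gene Ctsb stood out. It was at 7.25 and 7.57 in VE, against 1.28, 2.36 and 2.95 in the sections, with no overlap. The difference was 5.19 ± 0.66 (SE, limma adjusted p = 0.00034), and no section of the 17 exceeded 4.73. Ctsb was among 8 genes called higher in all 21 alternatives other than the block on section number and the covariate for detected genes. The other 25 tested members of the lysosome and endosome list gave 2 lower calls and 23 not called. Among all genes tested, 1.43% were higher and 25.1% lower. Other proteases and hydrolases were listed in 1 VE library each. Ctsa was at 7.95 in that of section 6 and at 0 in that of section 7. Ctsz was at 6.90, Ctsc at 6.10, Ctsd at 5.66 and Hexa at 6.38 in that of section 7, and all were at 0 in that of section 6. The summed FPKM of the list was 844 and 1009 in VE, against 117 to 221.

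Of the genes of the distal and anterior visceral endoderm, Lhx1 had both VE values above all 6 sections. This homeobox regulator was at 5.26 and 2.14 in VE, against 0, 0.42 and 0.69. Like Anxa2 it entered the test only through the VE libraries. In the fit with no entry rule it was called higher by 3.36 (limma adjusted p = 0.0182), and it was not called with sections 6 and 7 alone. Section 1, outside the comparison, was above both VE libraries. The secreted inhibitors Cer1, Dkk1 and Sfrp5 and the regulators Otx2 and Gsc were listed at 0 in both VE libraries, and Otx2 was lower than the sections, which ran from 1.89 to 5.58. Hhex was at 3.38 and 0. Amot and Eomes had both VE values above all 6 sections but were not called, with differences of 1.68 ± 0.69 and 1.41 ± 0.64 (SE, limma adjusted p = 0.0914 and 0.122). Over the list, Lhx1 was the 1 higher call among 9 tested genes, and Otx2 the 1 lower call.

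Genes of the Nodal, BMP and Wnt pathways, which act between this layer and the epiblast, gave no higher call. None of the 22 Nodal and BMP genes and none of the 19 Wnt genes in the table had an FPKM of 1 in both VE libraries, beside 5.21% of all genes in the table. Of those tested, 4 of 18 and 2 of 12 were lower, shares below the 25.1% over all genes. The lower genes were the Nodal co-receptor gene Tdgf1, the receptor gene Acvr2a, Smad1 and the BMP target Id3, and Fzd7 and Lef1 in the Wnt list. Id2, another BMP target, was at 0 and 6.98, with section values up to 3.98.

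Markers of parietal endoderm, the neighbouring layer that lays down Reichert's membrane, were also present. Of 8 tested, 2 were higher and 0 lower, and 1 of the 2, Fst, entered the test only through the VE libraries. Over all genes tested, 1.43% were higher and 25.1% lower. The summed FPKM of the parietal endoderm list was 460 and 145 in VE, against 18.7 to 26.0. Fst, which encodes the activin antagonist follistatin, was at 5.96 and 3.06 and at most at 0.51 in the sections. In the fit with no entry rule it was called higher by 4.40 (limma adjusted p = 0.0037). Its call was lost with sections 6 and 7 alone and with all 17 sections, among which section 1 held 6.19. Col4a1, a collagen IV chain, was at 3.08 and 6.09, against 0, 0.98 and 2.77, a difference of 3.45 ± 0.94 (SE, limma adjusted p = 0.0198), and was not called without the VE library of section 7, with sections 6 and 7 alone or with all 17 sections. The laminin genes Lamb1 and Lamc1 were at 7.84 and 5.36 in the VE library of section 6 and at 0.70 and 0.56 in that of section 7. Defining genes of parietal endoderm such as Nid1, Thbd, Snai1, Plat and Sox7 were listed at 0 in both. The share of such cells in the VE captures was not tested.

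Trophoblast markers moved with the VE libraries in part. H19, an imprinted RNA of extraembryonic tissues, was at 5.54 and 9.08 in VE, against 0, 1.50 and 2.87. The difference was 5.84 ± 1.06 (SE, limma adjusted p = 0.0024), and the call was lost with sections 6 and 7 alone and against all 17 sections, where sections 10 to 19 held 6.34 to 7.76. Prl3d1, a placental lactogen of trophoblast giant cells, was at 9.17 and 5.81. It was also at 8.55 in section 6, so the groups overlapped, and it was not called (limma adjusted p = 0.0969). Over the ectoplacental cone and trophoblast list, 1 of 11 tested genes was higher and 1, Cdkn1c, lower. The shares over all genes tested were 1.43% higher and 25.1% lower. The summed FPKM of the list was 702 and 728 in VE and 21.3 to 414 in the sections. Most of it came from Prl3d1 in the VE library of section 6 and from H19 in that of section 7. Ascl2, Plac1, Gcm1, Tpbpa, Gata3 and Krt7 were listed at 0 in both VE libraries. Of 9 tested extraembryonic ectoderm genes none was called, and Elf5, Cdx2 and Bmp4 were at 0 in both. The part of trophoblast in the differences was not tested.

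Epiblast markers were lower in VE for 10 of 20 genes and higher for 0, with a median difference of -3.20. Over all genes tested, 25.1% were lower and 1.43% higher, with a median difference of -1.39. Tdgf1, Fgf5, Fgf4, Lin28a, Slc7a3 and Zic5 were listed at 0 in both VE libraries, and Lin28a, for example, was at 4.11 to 5.07 in the sections. Of the 15 genes of formative and primed pluripotency, 11 were lower. The 2 VE libraries differed here. Pou5f1, the core pluripotency regulator, was at 0 in that of section 6 and at 6.73 in that of section 7, inside the range of the sections at 6.67 to 7.53. Pim2 at 8.02, Sox2 at 5.36 and Utf1 at 4.48 in the VE library of section 7 were likewise at 0 in that of section 6.

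Some epiblast transcripts were listed in both VE libraries. Nanog, a pluripotency regulator, was at 4.23 and 5.73, against a lowest section of 5.04 and a median of 5.27, a difference of -0.34 ± 0.57 (SE, limma adjusted p = 0.609). Dnmt3b, a de novo DNA methyltransferase, was at 7.58 and 4.11, against 7.58 to 8.41. It was called lower by a narrow margin, with a difference of -2.28 ± 0.75 (SE, limma adjusted p = 0.0455), and the call was lost in 14 of 23 alternatives, including without the VE library of section 7. L1td1, an RNA-binding protein of pluripotent cells, was at 7.94 and 1.51, on either side of the sections at 4.44 to 5.94. The summed FPKM of the epiblast list was 460 and 530 in VE, against 711 to 1127. The part of epiblast RNA in the VE captures was not tested.

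**Figure D3:**
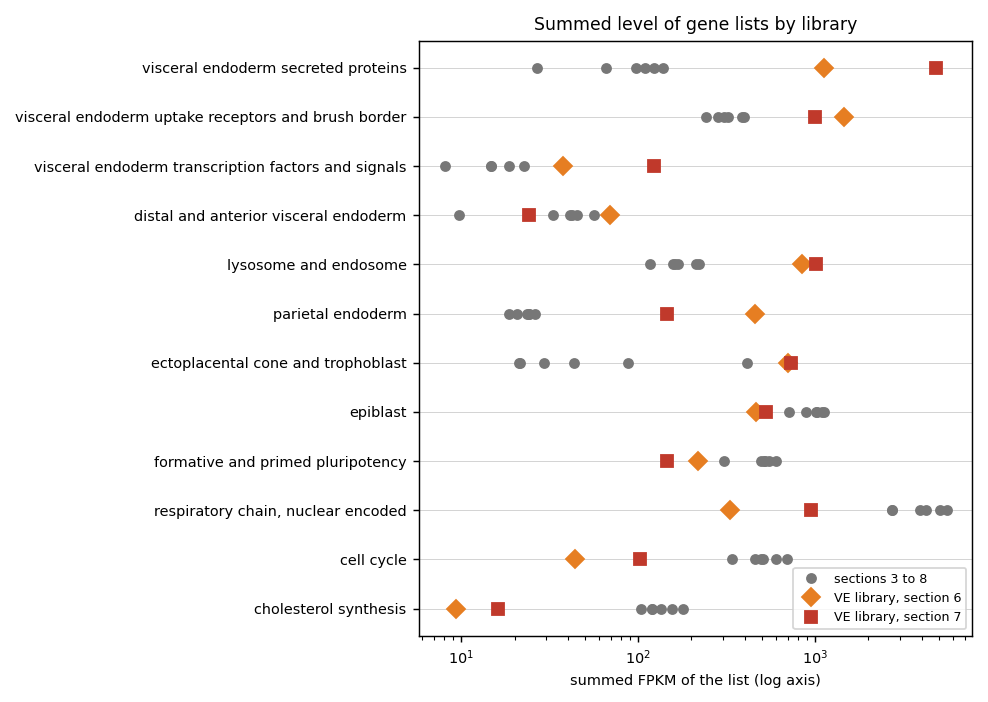
Summed FPKM of 12 gene lists (x axis, log scale) in each library; grey points are sections 3 to 8, the orange diamond and the red square the VE libraries of sections 6 and 7. Both VE libraries lie right of all sections for the visceral endoderm secreted protein and uptake lists and for the lysosome, parietal endoderm and trophoblast lists, but not for the other 2 visceral endoderm lists, where 1 section lies behind the diamond of the regulator list. They lie left of them for the epiblast, primed, respiratory chain, cell cycle and cholesterol lists.

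Decidua and blood are tissues that a capture could hold. Of the decidua list, 7 genes were tested and 0 called, beside 26.5% of all genes tested. Of 12 decidua genes in the table, 10 were listed at 0 in both VE libraries, among them Dcn, Hoxa10 and Cryab, and over the whole table the share at 0 in both was 75.9%. The 5 blood and leukocyte genes in the table were at 0 in both. Of these, 0 entered the test, so that list could give no call. The alpha globin row that joins Hba-a1 and Hba-a2 was at 12.06 in the VE library of section 6 and at 2.47 in that of section 7.

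Among the 12 genes with the largest positive differences, several had no place in the lists. Mfsd1, a lysosomal membrane transporter, was at 8.43 and 5.53 in VE, against at most 2.44 in the sections. Glrx, a glutaredoxin, was at 5.87 and 7.06, against at most 2.77. Neither overlapped sections 3 to 8, with differences of 5.91 ± 0.96 and 5.31 ± 0.90 (SE). Mfsd1 was at 5.96 in section 19, above the VE library of section 7, and was not called with sections 6 and 7 alone. S100a13, a calcium-binding protein, was at 4.54 and 7.13, against at most 0.98. It entered the test only through the VE libraries, and in the fit with no entry rule it was called higher by 5.54 (limma adjusted p = 0.001). S100a13 was at 5.61 in section 16, above the VE library of section 6, and its call was lost with all 17 sections.

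Lmf2, a relative of the lipase maturation factor, was at 7.41 and 6.19, against at most 3.39. Zcchc11, a terminal uridylyltransferase, was at 7.81 and 6.96, against at most 2.95. Fdxr, the ferredoxin reductase of mitochondrial steroid synthesis, was at 3.02 and 7.80, against at most 1.46. Ccdc97 was at 8.99 and 4.31, against at most 3.09, and was not called without the VE library of section 6. Their differences lay between 5.06 and 5.22, and limma adjusted p was 0.0053 for Ccdc97 and lower for the other 3. Fdxr and Ccdc97 were not called with sections 6 and 7 alone, and Fdxr was at 3.63 in section 1.

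Most listed genes of the respiratory chain were lower. Of 21 nuclear genes of the respiratory chain, 14 were lower and 0 higher, with a median difference of -3.76. Of the 14, 10 were at 0 in both VE libraries. Over all genes tested, 25.1% were lower, and the median difference was -1.39. Cox4i1, a subunit of cytochrome oxidase, was present in both at 4.63 and 3.89, against 7.68 to 8.33, a difference of -3.76 ± 0.47 (SE, limma adjusted p = 0.00033). Cox7c was at 6.46 and 7.43, against 9.55 to 10.82. Cox6b1, of the same complex, was at 6.20 and 6.42 inside the section range of 3.71 to 8.11. Cox5b, a further subunit of the complex that is not in the list, was called higher. It was at 8.21 and 9.24, against at most 7.35, a difference of 1.76 ± 0.53 (SE, limma adjusted p = 0.032). The call held in 13 of 23 alternatives and was lost with sections 6 and 7 alone, with all 17 sections and after quantile normalization. In glycolysis 6 of 15 tested genes were lower, beside 25.1% of all genes tested. Eno1, which encodes enolase, was at 1.60 and 2.19, against 6.57 to 7.48, and Ldha, lactate dehydrogenase A, at 1.62 and 4.59, against 6.98 to 8.69. Gapdh, of the same pathway, was at 6.80 and 7.36, against 7.87 to 8.59, and was not called.

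Many genes of cholesterol synthesis and of the cell cycle were lower in VE. Of 16 cholesterol genes 8 were lower, beside 25.1% of all genes tested, and 12 were at 0 in both VE libraries, beside 65.1%. Of 19 cell cycle genes 15 were lower, and 8 were at 0 in both. Pcna, the clamp of DNA polymerase, was at 0 in both and at 5.96 to 7.32 in the sections. Top2a was present in both at 3.99 and 5.41, below all sections at 5.93 to 6.76, and was not called (limma adjusted p = 0.0625). These lists had 1 member each with an FPKM of 1 in both VE libraries.

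Abundant transcripts did not all fall. Of 23 cytosolic ribosomal protein and translation genes, 6 were lower, 0 higher and 17 not called. The lower share was near the 25.1% over all genes tested, where 1.43% were higher. The median difference of the list was -0.71, beside -1.39 over all genes tested. Its summed FPKM of 15330 and 19858 overlapped the 16219 to 21605 of the sections. Rplp1, a stalk protein of the ribosome, was at 12.12 and 12.55, above all sections at 11.22 to 12.02, and was not called (limma adjusted p = 0.102). Rps20 was at 4.27 and 5.45, against 9.95 to 10.49, a difference of -5.37 ± 0.45 (SE, limma adjusted p = 4.1e-05). Rps19 was called higher, at 10.90 and 10.56, against at most 9.89 (limma adjusted p = 0.026). That call held in 15 of 23 alternatives and was lost after quantile normalization, with equal sums without Rn45s and with all 17 sections. Neither Rps20 nor Rps19 is in the list. Ribosomal protein genes have many processed copies in the genome, and how the authors counted reads shared with them is not given in the sources used here.

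The largest negative differences among genes that both VE libraries list were those of Tpt1 and Ran. Tpt1, a growth-related protein also called translationally controlled tumour protein, was at 4.92 and 2.55, against 9.53 to 9.89. Ran, the GTPase of nuclear transport, was at 1.28 and 1.81, against 6.77 to 7.97. Neither overlapped, with differences of -6.01 ± 0.58 and -5.89 ± 0.52 (SE, limma adjusted p = 8.1e-05 and 4.9e-05). Npm1, the nucleolar chaperone nucleophosmin, was at 2.08 and 10.31, with the second value just under the lowest section at 10.37. Its call, at -4.91 ± 1.50 (SE, limma adjusted p = 0.0333), was lost in 10 of 23 alternatives, among them without the VE library of section 6 and without each of sections 4 to 8.

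Of 7 tested ribosomal and nuclear RNA genes, 3 were higher and 2, Rpph1 and Rn4.5s, were lower and at 0 in both VE libraries. Among all genes tested, 1.43% were higher and 25.1% lower. Rn45s was at 18.89 and 17.75, against 13.03 to 15.29, and Lars2 at 15.99 and 15.01, against 10.88 to 13.13. Malat1, a long RNA retained in the nucleus, was at 10.77 and 10.47, against 8.20 to 9.28, a difference of 1.70 ± 0.43 (SE, limma adjusted p = 0.0139). The calls of all 3 were lost under quantile normalization, and that of Malat1 also with equal sums without Rn45s and against all 17 sections.

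Section 1, outside the comparison, had some values near those of the VE libraries. It held 3211 genes at an FPKM of 1 and 52.8% of its summed FPKM in Rn45s. Its level was 6.87 for Apom, 8.76 for Apoe and 6.19 for Fst, each, like that of Lhx1, its highest among the 17 sections. Apoc2 was listed at 0 there, and Ctsb at 1.73. Tpt1 at 9.04 and Ran at 7.95 were far above both VE libraries. Other genes among the 10 largest negative differences were mixed in section 1. Rps20 was at 9.62 and Eno1 at 7.46, whereas Rpl34Rpl34-ps1 was at 4.92 and Srsf2 at 0. Apoc2 and Apom reached 5.98 and 4.90 in section 15, below both VE libraries.

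**Figure D4:**
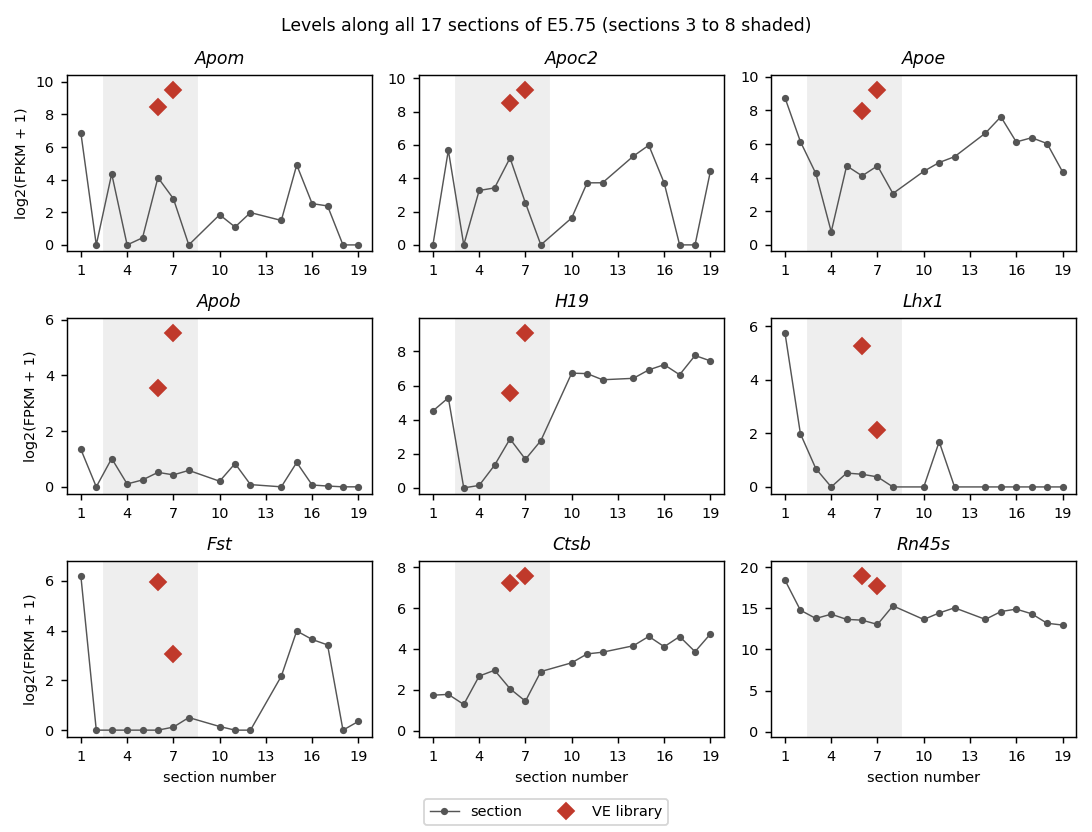
Levels of 9 genes (y axes, log2(FPKM + 1), each with its own range) along the 17 sections of E5.75 (x axis, section number; lines join the sections, and sections 9 and 13 have no point), with the VE libraries as red diamonds at sections 6 and 7. Section 1 is the highest section for Apom, Apoe, Lhx1, Fst and Rn45s, and H19 is at 6.34 or more in the sections from 10 on.

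The VE libraries differed from each other far more than neighbouring sections did. Over the 710 genes the median gap between them was 1.86, against 0.38 between sections 6 and 7 for the same genes. Across these genes, which share the libraries and are not independent, Pearson's r was 0.405 between the VE libraries and 0.965 between sections 6 and 7. Of the genes at an FPKM of 1 in the VE library of section 6, 47.5% were also in that of section 7, and of those in section 7, 33.1% were in that of section 6. Among the 124 higher genes the gap was over 3 for 23 and under 1 for 41. The fit assumed 1 spread per gene for both groups, so standard errors and p-values can understate the spread of the VE libraries.

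Genes with the widest gap were high in the VE library of section 6. Cts7, a placental cathepsin, was at 11.43 and 1.22, and was at 0 in 4 of the 6 sections. Gm13139Gm13251 was at 12.22 and 3.49, Pak1ip1 at 10.19 and 1.69 and Nit2 at 9.65 and 1.39. None of them, nor the joined alpha globin row, was called. The 8 genes highest on average in the VE libraries were Rn45s, Lars2 and the ribosomal protein genes Rplp1, Rps12, Rpl41, Rplp2, Rpl38 and Rps21. Their gaps ran from 0.03 for Rps21 to 2.40 for Rps12.

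**Figure D5:**
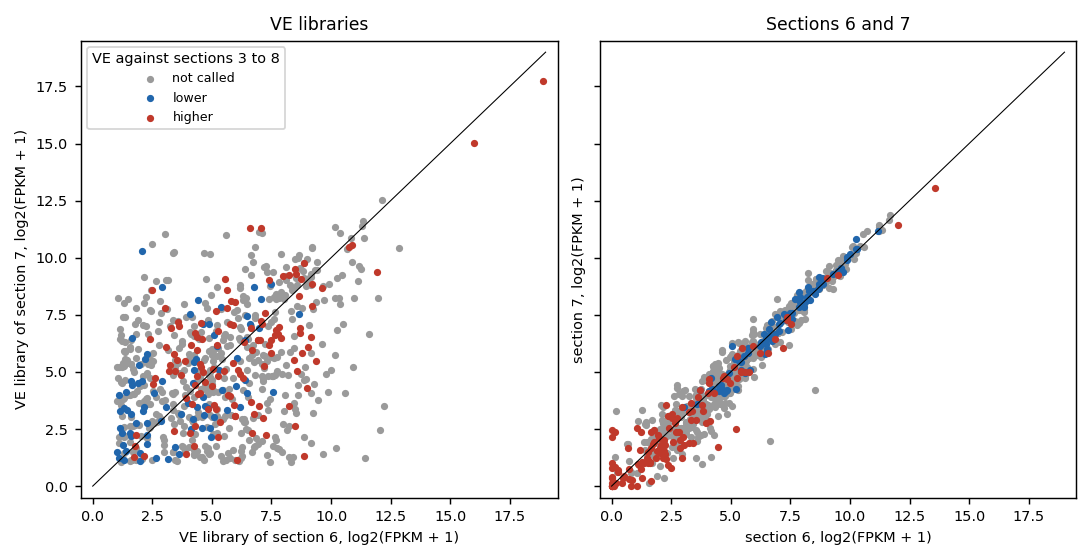
Levels of the 710 genes with an FPKM of 1 in both VE libraries, in the VE library of section 6 (x axis) against that of section 7 (y axis) on the left, and in section 6 against section 7 on the right, log2(FPKM + 1); the line marks equal levels and colours the calls against sections 3 to 8. Points scatter widely on the left and lie close to the line on the right.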

How the data were processed

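Laser-captured pieces of E5.75 mouse embryo were sequenced with Smart-seq2, per the labels' protocols. The submitters' processing notes name the build mm10 and, with no role given, TopHat2 2.0.4 and Cufflinks 2.0.2; annotation and normalization are not given in the sources used here. The authors deposited FPKM on a log2 scale, 1 column per library, with 13618 genes at E5.75, read here as log2(FPKM + 1) because values start at 0. The tables hold no counts, so depth and its precision are unknown. Sections 9 and 13 and the tables of other stages were not used here, and 0 columns of the table were without a sample.

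Genes that reached an FPKM of 1 in 2 or more of the 8 libraries entered a limma 3.58.1 fit in R 4.3.3 (trended eBayes, 2-sided, Benjamini-Hochberg adjustment at 0.05) on the deposited values, VE (n = 2) against sections 3 to 8 (n = 6), without a block. Differences are VE minus sections with standard errors, and with a pseudocount of 1 they understate changes of low genes. Standard errors and p-values assume 1 spread per gene in both groups, set largely by the 6 sections. Over the 710 genes the median gap was 1.86 between the VE libraries and 0.38 between sections 6 and 7. The fit was tested on simulated data in which VE libraries had the spread of the sections and no loss of detected genes. That test cannot show how the fit behaves with VE libraries as uneven as these. The labels describe the libraries as separate captures and not as separate embryos.

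The members and lists were chosen with earlier results of these data known. Named were, among called genes with an FPKM of 1 in both VE libraries, the 12 largest positive and 10 largest negative differences without unnamed models; up to 6 members of each of the 4 visceral endoderm lists and up to 3 of each other list with an FPKM of 1 in both VE libraries, smallest p first; the 8 genes highest in VE; the 5 with the widest gap; and defining genes at 0 in both. Other list members are named as examples, chosen after their values were seen. Some list members are not reported here by name. Spink1, Msmo1 and Hbb-bs were matched by older symbols. Of naive pluripotency genes 2 were tested with 0 called, of primitive streak genes 5 with 0 called, of stress genes 4 with 1 (Ier2) lower, and of basement membrane genes 13 with 1 (Col4a1) higher and 1 (Itgb1) lower; no mitochondrially encoded gene was in the table. Over all genes tested, 26.5% were called. Alternatives were pseudocounts of 0.1 and 5, other filters, 3 rescalings, other limma settings, a block, a covariate, other sections and leaving out each library. Promoters came from RefSeq (GRCm38.p6), and figures from matplotlib 3.10.9 in Python 3.11.15.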

Additional observations from a re-analysis of the deposited data

Results flagged for a closer look

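Of 68 groups of 6 sections checked (65 named genes and 3 library measures), 11 had 1 section far from the other 5. The cutoff marks about 1 in 20 groups of independent, normally distributed values. These groups share the same 6 libraries and some hold several values of 0, so that rate need not apply to them. Section 8 stood apart low for Spink3 at 1.16 and L1td1 at 4.44 on the log2(FPKM + 1) scale, and high for Fst at 0.51 and for the Lars2 share of summed FPKM at 3.61%. Section 3 was low for Dnmt3b at 7.58 and for Atp5g3, a subunit of ATP synthase, at 6.43. Section 4 was low for Rpl19 at 7.80 and held the only value of Anxa2 above 0, at 0.28. Section 7 was low for Sparc, a matrix protein, at 3.08 and high for Cts7 at 3.28. Section 5 was high for Fdxr at 1.46.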

How the results depend on the processing

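Counts of called genes moved with several settings. The total of 2297 was 3627 with a pseudocount of 0.1, 1266 with 5, 166 over genes at an FPKM of 1 in all 8 libraries, 1200 after quantile normalization and 3671 with sections 6 and 7 only. The 124 higher genes became 72 over genes at an FPKM of 1 in all 8 libraries, 220 after quantile normalization and 40 with sections 6 and 7 only. The 2173 lower genes became 3505, 1148, 94, 980 and 3631 in the same order of settings as the total, and the 82 lower genes with an FPKM of 1 in both VE libraries became 30 with sections 6 and 7 only. Apart from fewer genes or libraries tested, the cause was not tested. With detected genes as a covariate, all 4 counts were 0. With section number as a replicate block all 4 were also 0 (smallest adjusted p = 0.0926, limma), 3645 genes had an unadjusted p below 0.05, and 1 residual degree of freedom was left. Section numbers give positions here, VE and section libraries of section 6 deviated from their group means with a correlation of 0.0009, and with 2 pairs this does not settle whether libraries pair.

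Leaving out each library gave 1887 to 2812 genes in all, 104 to 475 higher, 1650 to 2687 lower and 59 to 164 lower with an FPKM of 1 in both VE libraries. Signs depended on the VE library left out for 4 named genes: without that of section 6 and without that of section 7 the differences were -3.97 and 2.45 for L1td1, -1.39 and 1.01 for Rps12, -2.11 and 6.61 for Gm13139Gm13251, and -3.09 and 5.41 for Pak1ip1. Of the 124 higher genes, 92 were called in all 3 rescalings, and 8 in all 21 alternatives other than the block and the covariate, where a gene not tested counts as not called. The unknown depth limits every value listed at 0.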

Other observations

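The following genes among the 124 higher ones were chosen after their values were seen and belong to no list above. Over 23 alternatives their calls held in 8 for Canx, 12 for Xlr3b and 16 to 21 for the others. Sec63, part of the protein-import channel of the endoplasmic reticulum, was at 6.34 and 6.32 on the log2(FPKM + 1) scale in the VE libraries of sections 6 and 7, against 1.61 to 2.52 in sections 3 to 8. Ckap4, a protein of reticulum sheets, was at 5.62 and 7.81, against 1.84 to 3.42. Rrbp1, a ribosome-binding protein of the same membranes, was at 8.80 and 5.84, against 0.64 to 3.73. The chaperone genes Canx, at 7.04 and 7.22, and Hsp90b1, at 9.62 and 8.69, were nearer to the sections, which reached at most 5.98 and 7.65. The call of Canx was lost in all 3 rescalings. None of these overlapped sections 3 to 8, whereas the chaperone gene Hspa5 was not called. Among all 17 sections Rrbp1 reached 7.07, above the VE library of section 7.

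Soat2, which makes cholesterol esters for lipoproteins, was at 2.49 and 8.60, against 0.39 to 1.51 in the sections. Gpc3, a cell-surface heparan sulfate proteoglycan, was at 5.51 and 5.04, against 0.58 to 2.81. Nostrin, an endocytic adaptor, was at 4.64 and 5.01, against at most 1.08. Gpx4, the phospholipid hydroperoxidase, was at 8.75 and 9.08, against 5.03 to 6.75. Mt1, a metallothionein, was at 8.86 and 9.79, against at most 7.62. Among all 17 sections Soat2, Nostrin and Mt1 reached 2.88, 4.76 and 9.14, each above the VE library of section 6.

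Rhox8, a reproductive homeobox gene, was at 6.98 and 3.49, against 0.37 to 1.60. Among all 17 sections Rhox8 reached 4.44, above the VE library of section 7. Xlr3a was at 4.28 and 6.71, Xlr3b at 3.22 and 5.32 and Xlr3c at 4.18 and 3.61. All were above their highest value in sections 3 to 8, at 3.11, 2.56 and 2.42. Among all 17 sections they reached 6.49, 5.64 and 5.87, above both VE libraries for Xlr3b and Xlr3c and above that of section 6 for Xlr3a. The Xlr3 genes are near-identical copies, so their separate values are uncertain.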
